A study of Rattus norvegicus with 18 samples.

Results

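The BCL2 family was followed at the mRNA level in rat insulinoma cells made to express a misfolding insulin. The 10 genes chosen were the BH3-only members Bbc3, Bcl2l11, Pmaip1, Bid and Bad, the pore-forming members Bax and Bak1, and the anti-apoptotic members Bcl2, Bcl2l1 and Mcl1. A probe set, the group of array probes that reads 1 transcript, was taken as a member where the platform annotation gives it to exactly 1 of these genes. This left 14 of the 31042 probe sets tested, covering 8 of the 10 genes. No probe set was assigned to Pmaip1 alone. The one probe set naming Bax is shared with LOC681314, so it was kept out of all member counts and its values are given separately.

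BCL2 proteins decide whether the outer mitochondrial membrane stays closed. BAX and BAK1 form pores in it through which cytochrome c escapes to start caspase activation, BCL2, BCL-XL (the long product of Bcl2l1) and MCL1 hold them in check, and BH3-only proteins bind the anti-apoptotic members or the pore formers directly. In cells with a stressed endoplasmic reticulum (ER), the BH3-only genes Bbc3 (PUMA) and Bcl2l11 (BIM) are known targets of the stress-responsive transcription programme, and beta cells, which fold large amounts of proinsulin, are among the cell types where this has been studied. Several members, such as BAD, BID and MCL1, are regulated largely as proteins, which an RNA measurement does not read.

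The cells were clone #4S2, 1 clone of INS-1 rat insulinoma cells, sorted for EGFP after induction, in which a tetracycline-responsive promoter drives proinsulin C96Y fused to EGFP. Both the transactivator and the transgene were present in every group, so the groups differ in whether doxycycline was added. Doxycycline was given at 2 µg/ml and RNA was taken after 24 h, after 48 h and after 5 days, each time beside untreated cells of the same clone as control. There were 3 arrays in each of the 6 groups, 18 in all, 1 from each of 3 independent experiments at that time. Same-numbered doxycycline and control arrays of a time were treated as a pair. An experiment number below is the replicate number of the label. The labels do not say whether the same number at different times is the same experiment. With 3 arrays in a group the precision of each value is limited, and an RNA signal from a whole culture does not separate less RNA per cell from fewer cells expressing the gene.

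The label check used 13 known ER stress targets. At 24 h and 48 h all 13 were higher with doxycycline in each of the 6 pairs. At 5 days, experiment 1 went against its labels, with 0 higher and 13 lower in the library labelled doxycycline, whereas experiment 2 had 11 higher and experiment 3 had 13 higher. The library labelled doxycycline, 5 days, replicate 2 also had a GAPDH 3'/5' signal ratio of 2.91, a sign of degraded RNA, against 1.05 to 1.19 in the other arrays. The 5-day values below are therefore given as labelled, pair by pair, as a description. Beta cell transcripts dominated the arrays, with median signals of 20977 for Ins1 and 17648 for Iapp, while the 5 acinar and duct markers stayed between 1.32 and 58.4, the 4 fibroblast markers between 1.32 and 94.7 and the 3 immune markers between 0.837 and 63.4. Of the markers of other islet cells, Gcg, the proglucagon gene, was the exception. It gave 261, 271 and 292 with doxycycline and 1909, 1470.0 and 2057 in control at 48 h and fell by 2.71 on the log2 scale (limma, adjusted p = 0.0438). The other 3 islet markers measured, Sst, Ppy and Ghrl, had median signals of 34.4, 56.5 and 9.03. Among 8 beta cell markers, 6 had a lower mean signal with doxycycline at 48 h. The fit of that time called 1 of them lower, beside 18 of all 31042 probe sets. The fit of the 12 arrays of 24 h and 48 h called 4 lower, beside 565 of 31042. Neither fit called any of them higher. The 1 was Mafa, a transcription factor of mature beta cells, which gave 1993, 2289.7 and 2415 with doxycycline and 4333, 4677 and 5057 in control at 48 h and fell by 1.07 on the log2 scale (limma, adjusted p = 0.0438). Whether the Gcg and beta cell marker differences have a part in the member values was not tested.

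No member probe set passed the adjusted threshold of 0.05 at any time when each time point was fitted on its own with limma and its 3 pairs as blocks. Over all probe sets this fit called 86 at 48 h (68 higher and 18 lower, 0.277% of those tested) and 0 (0%) at both other times. Before adjustment, a p under 0.05 was reached at 24 h by 1517 probe sets with a higher and 1540 with a lower signal, among them 1 member (Bcl2l11, higher), and at 48 h by 2279 and 2434. At 48 h 2 members (Bbc3 and Bcl2l11) were higher at that level, and at 5 days none was, against 532 probe sets higher and 419 lower over the whole array. The methods' t-test with Benjamini-Hochberg adjustment called no member either. No member reached a ratio of 2 or fell to 0.5 in 2 of the 3 experiments at any time, against 3.14% of all probe sets for a ratio of at least 2 at 24 h, then 4.26% at 48 h and 4.12% on the fifth day, and 2.82%, 4.04% and 3.68% for a ratio of at most 0.5. With 14 member probe sets, shares of this size leave a count of 0 unremarkable. The rule also leaves room for wider differences in 1 experiment. At 48 h Bcl2 had a ratio of 0.474 in experiment 2, and the dimmest Bcl2l1 probe set 2.36 in experiment 3. At 5 days, as labelled, another Bcl2l1 probe set had a ratio of 0.036 in experiment 2. Among the probe sets that represent the genes, the largest mean log2 differences at 48 h were those of Bcl2l1, Bbc3 and Bcl2l11. With any 1 of the 3 pairs left out, this fit called no probe set at all at 48 h.

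Fitting the 12 arrays of 24 h and 48 h together, which shares the estimate of spread between both times and leaves out the doubtful 5-day libraries, placed 2 members past the threshold at 48 h. They were Bbc3 and Bcl2l11, both BH3-only and both higher, where 2.27% of all probe sets were called higher (4.09% in either direction). No member passed at 24 h, where that fit called 0.667% of all probe sets. Both calls rest on few arrays. Each was retained when the 24 h pair of experiment 1 was left out, and neither was retained when any other pair was, with adjusted p between 0.0546 and 0.134 for Bbc3 and between 0.0659 and 0.148 for Bcl2l11. Neither was called without the pairing in that fit.

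**Figure D1:**
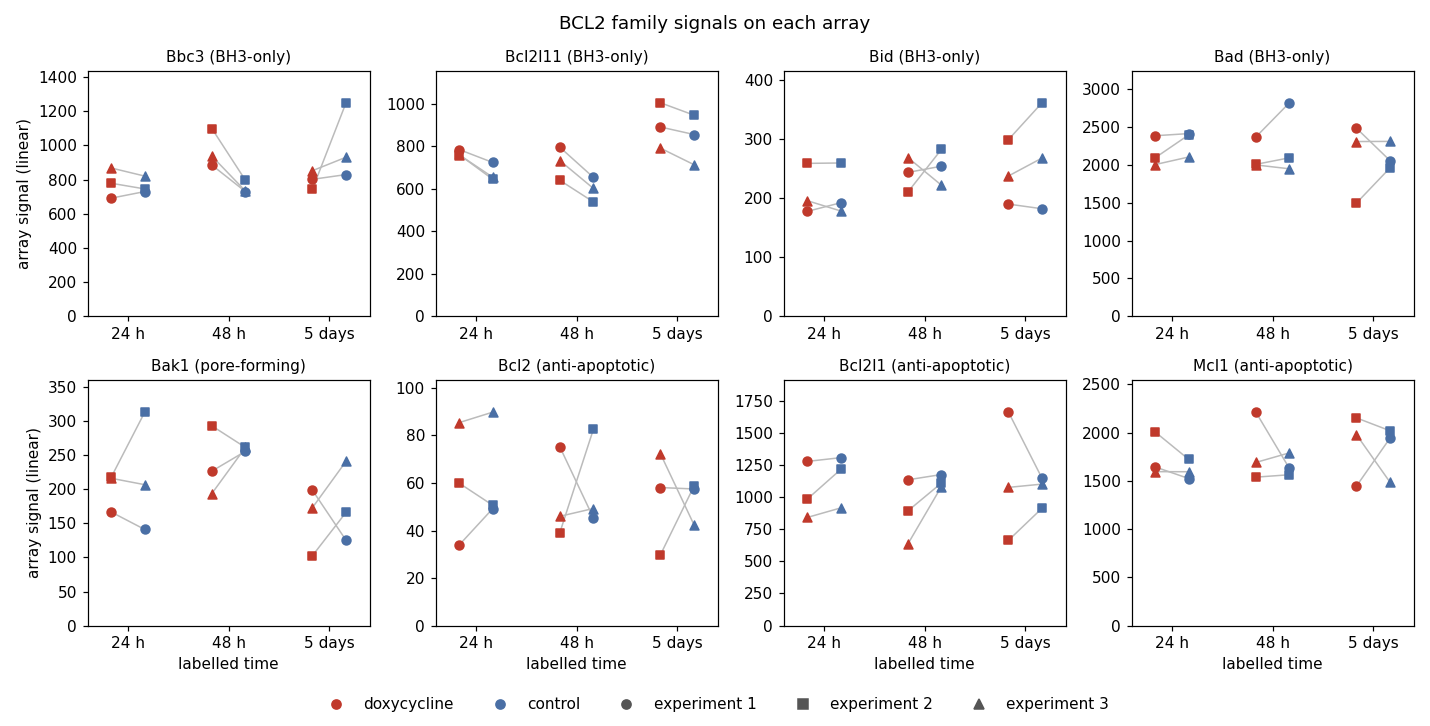
Linear array signal (y axis, from 0) of the probe set representing each of 8 members, by labelled time (x axis), doxycycline left in red and control right in blue; the marker shape gives the experiment and a grey line joins each pair. Bbc3 at 48 h lay between 885 and 1099 with doxycycline, above all 3 controls. Bcl2l11 was higher with doxycycline in every pair of the earlier times, and in every pair of the last time only as labelled. With the last-time pair that goes against its labels turned, Bcl2l11 was no longer higher in every pair.

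Among the BH3-only genes, Bbc3 encodes PUMA, a protein that can engage every anti-apoptotic member. At 24 h its signals were 691, 778 and 868 with doxycycline and 729.9, 745 and 820.3 in control. At 48 h they were 885, 1099 and 937 with doxycycline and 729.9, 796 and 733 in control. The groups overlapped at 24 h and did not overlap at 48 h, a separation that 8.02% of all probe sets showed in the higher direction at that time. The log2 fold change was 0.022 (SE 0.049) at 24 h and 0.37 at 48 h, with SE 0.054 and adjusted p = 0.123 in the limma fit of that time and SE 0.056 and adjusted p = 0.0268 in the fit of 12 arrays. The ratios at 48 h were 1.21, 1.38 and 1.28, a mean of 1.29 ± 0.084 (SD, n = 3), and 17% of all probe sets were likewise higher in 3 of 3 pairs. The effect at 48 h exceeded that at 24 h by 0.34 on the log2 scale (SE 0.079), which did not pass adjustment over all probe sets (limma, adjusted p = 0.791). In the untreated cells the mean log2 signal differed by -0.022 between 48 h and 24 h, and the 3 control signals of both times overlapped.

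At 5 days, Bbc3 was lower in the libraries labelled doxycycline, with 802, 744 and 852, against 829, 1249 and 931 in those labelled control. It was lower in 3 of 3 pairs as labelled, as 9.48% of all probe sets were, with log2 ratios of -0.049, -0.75 and -0.13. Higher in 3 of 3 pairs at 48 h and lower in 3 of 3 at this time was the pattern of 0.976% of all probe sets. Both counts rest on experiment 1, which goes against its labels at 5 days. With the sign of that pair turned, an alternative chosen after seeing the data, its log2 ratio was 0.049 and Bbc3 was lower in 2 of 3 pairs. The signal of 1249 was the highest of Bbc3 on any of the 18 arrays. The same library, labelled control, 5 days, replicate 2, also held the highest signals of Ddit3 (5629.7), Trib3 (5053) and Atf4 (15192), stress regulators described below. It held the lowest signals of the label-check targets Sdf2l1 (595) and Creld2 (781) as well. In that pair 11 of the 13 label-check targets were higher in the library labelled doxycycline and 2 were lower. Experiment 3, the one 5-day pair in which all 13 label-check genes went with the labels, gave a ratio of 0.916.

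Bcl2l11 encodes BIM, a BH3-only activator of BAX and BAK1. Its brightest probe set gave 784, 759.9 and 759 with doxycycline and 723, 644 and 654 in control at 24 h. At 48 h it gave 795, 639 and 732 with doxycycline and 653, 538 and 601 in control. The groups did not overlap at 24 h (4.47% of all probe sets separated that way) and overlapped at 48 h, because the signal of experiment 2 was low in both arms. Within pairs the difference was even, with ratios of 1.22, 1.19 and 1.22 at 48 h and a mean of 1.21 ± 0.016 (SD, n = 3). The log2 fold change was 0.19 (SE 0.042, limma adjusted p = 0.428) at 24 h and 0.27 (SE 0.041, adjusted p = 0.124) at 48 h, and in the fit of 12 arrays the 48 h value passed (SE 0.046, adjusted p = 0.0333). All 6 pairs of 24 h and 48 h were higher with doxycycline, as they were for 5.9% of all probe sets. By 5 days the libraries labelled doxycycline gave 890.0, 1004 and 790.5 and those labelled control 855, 946 and 713, again higher in each pair as labelled (12.7% of all probe sets were), with log2 ratios of 0.058, 0.086 and 0.15. With the pair of experiment 1 turned in the same way, its log2 ratio was -0.058 and Bcl2l11 was higher in 2 of 3 pairs.

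The other probe sets of Bcl2l11 were dim, both below the median of all probe sets in mean signal, and did not follow the bright one. The first gave 78.9, 67.4 and 70.6 with doxycycline and 71.7, 41.0 and 85.3 in control at 48 h, a log2 fold change of 0.19 (SE 0.32), and the second gave 42.1, 85.5 and 50.7 with doxycycline and 75.4, 44.4 and 51.8 in control (0.026, SE 0.47). Their pairs went in both directions and the groups overlapped. The mean of all 3 probe sets was called at no time.

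The promoter windows of Bcl2l11 and Bcl2l1 are shown because these genes lay in opposite directions at 48 h and the regulators ATF4 and CHOP (Ddit3), which bind short DNA motifs, rose. Each window runs from 250 bases before to 50 after the start of the transcript, read on the gene's own strand, and comes from the RefSeq table of the rat build GRCr8, which has windows for 8 of the 10 genes, Bbc3 and Bax not among them. Capitals mark matches, on either strand, to 4 motifs. They are the CHOP and ATF4 composite site TTGCATCA, a looser form of it, the FOXO site GTAAACA and the GC box GGGCGG. The looser form, TGATGNAA, is the reverse complement of the composite site with the base at N left free. Bcl2l11 lies on the plus strand at chr3:135819792-135820091 and Bcl2l1 on the minus strand at chr3:161764726-161765025.
Bcl2l11: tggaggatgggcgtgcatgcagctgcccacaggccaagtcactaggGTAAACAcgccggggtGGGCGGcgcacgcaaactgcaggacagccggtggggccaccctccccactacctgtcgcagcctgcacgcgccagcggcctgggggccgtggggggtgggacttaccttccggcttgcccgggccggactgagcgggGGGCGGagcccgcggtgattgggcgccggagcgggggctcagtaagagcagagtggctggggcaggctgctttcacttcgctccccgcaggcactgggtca
Bcl2l1: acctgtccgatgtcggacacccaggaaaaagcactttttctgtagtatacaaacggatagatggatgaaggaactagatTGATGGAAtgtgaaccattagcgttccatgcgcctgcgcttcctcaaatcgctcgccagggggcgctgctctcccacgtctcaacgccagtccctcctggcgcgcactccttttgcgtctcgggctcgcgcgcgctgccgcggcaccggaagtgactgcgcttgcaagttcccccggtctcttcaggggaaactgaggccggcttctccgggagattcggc
The Bcl2l11 window holds a FOXO match and a pair of GC boxes. This Bcl2l1 window, of the most upstream of 4 starts, holds a match to the looser form, which 3 of the 4 windows hold. The composite site was found in 0 of 11 member windows and in 0.795% of all 33469 windows. The looser form was found in 4 of the 11 member windows, 3 of them of Bcl2l1 and the rest of Bcl2, and in 3.98% of all windows. The FOXO site was found in 2 of the 11 (Bad and Bcl2l11) and in 3.78% of all windows. The GC box was found in 6 of the 11, in 6 genes, and in 33.1% of all windows. A match is a description of the letters only.

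Bid, whose product is cleaved by caspase 8 to link death receptors to mitochondria, showed no shared direction. Its brighter probe set gave 178, 259 and 196 with doxycycline and 192, 259.6 and 178 in control at 24 h. At 48 h it gave 244, 210.2 and 269 with doxycycline and 254, 283 and 222 in control. The groups overlapped at both times and the log2 fold changes were 0.0057 (SE 0.091) and -0.071 (SE 0.17). The second, dimmer probe set gave -0.074 (SE 0.15) at 24 h and -0.24 (SE 0.29) at 48 h. As labelled at 5 days, the brighter one gave 189.9, 299 and 238 in libraries labelled doxycycline and 182, 361 and 268 in those labelled control.

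Bad, a BH3-only protein silenced by phosphorylation and 14-3-3 binding, had the brightest member signal on the arrays, a comparison of probe sets that does not rank transcript levels. At 24 h it gave 2386, 2095 and 2005 with doxycycline and 2415, 2398 and 2105 in control. At 48 h it gave 2369, 2008 and 2001 with doxycycline and 2822, 2095 and 1949 in control. The doxycycline arrays were lower in 3 of 3 pairs at 24 h, where 15.5% of all probe sets were, and in 2 of 3 at 48 h. The log2 fold change was -0.094 at 24 h and -0.092 at 48 h (SE 0.047 and 0.069, adjusted p = 0.596 and 0.604 by limma). The 5-day log2 ratios as labelled were 0.27, -0.39 and -0.0012.

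Of the pore formers, Bak1 had pairs in both directions at 24 h and at 48 h. Its signals were 167, 218 and 216 with doxycycline and 141, 313 and 207 in control at 24 h. At 48 h they were 227, 293 and 194 with doxycycline and 256, 261 and 261 in control. The log2 fold changes were -0.073 (SE 0.19) and -0.15 (SE 0.15), and without the 24 h pair of experiment 2 the sign at that time turned to 0.15. Signals at 5 days, as labelled, were 198, 103 and 173 for doxycycline and 125, 166 and 241 for control.

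The probe set shared by Bax and LOC681314 was lower in all 6 pairs of 24 h and 48 h, as 6.32% of all probe sets were. It gave 1682, 1923 and 1782 with doxycycline and 1763, 2188 and 1863 in control at 24 h, a log2 fold change of -0.11 (SE 0.040, limma adjusted p = 0.534). At 48 h it gave 1980.4, 1938 and 1708 with doxycycline and 2401, 1978 and 2007 in control, a difference of -0.18 (SE 0.064, adjusted p = 0.337). The groups overlapped at both times, and from which of these transcripts the signal comes cannot be told apart.

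Bcl2l1, which encodes the anti-apoptotic BCL-XL and, by splicing, a pro-apoptotic short form, was lower in all 6 early pairs at its brightest probe set. At 24 h this probe set gave 1279, 985 and 842 with doxycycline and 1308, 1216 and 917 in control. At 48 h it gave 1136, 893 and 635 with doxycycline and 1177, 1110.2 and 1082 in control. The groups overlapped at 48 h through experiment 1, where the pair was nearly level, and the difference was widest in experiment 3, with ratios of 0.965, 0.804 and 0.587. The log2 fold change was -0.15 (SE 0.068, limma adjusted p = 0.564) at 24 h and -0.38 (SE 0.16, adjusted p = 0.395) at 48 h. Among the brighter 50 percent of probe sets fitted alone, where 2400 of 15521 were called at 48 h, it passed (adjusted p = 0.0433), as did Bbc3 (adjusted p = 0.0114).

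The second bright probe set of Bcl2l1 was lower in 5 of these 6 pairs. It gave 541, 443 and 291 with doxycycline and 742, 429.7 and 420.1 in control at 48 h, a log2 fold change of -0.32 (SE 0.14, limma adjusted p = 0.419), after -0.37 (SE 0.14, adjusted p = 0.538) at 24 h. The third was dim, between 6.75 and 59.0 in the 12 early arrays, with pairs in both directions. At 5 days the brightest probe set gave 1663, 664 and 1076 in libraries labelled doxycycline and 1147, 914 and 1102 in those labelled control, with the first pair opposite to the other 2. The second gave 815, 22.1 and 331 in libraries labelled doxycycline and 597, 621 and 438 in those labelled control. The value of 22.1 belongs to the library with the raised GAPDH ratio.

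Mcl1, whose short-lived product guards BAK1 and binds BIM and PUMA, was near level. Its brighter probe set gave 1645, 2007 and 1596 with doxycycline and 1525, 1723 and 1595 in control at 24 h, higher in 3 of 3 pairs, as 13.9% of all probe sets were. At 48 h it gave 2213, 1539 and 1692 with doxycycline and 1629.9, 1564 and 1791 in control, higher only in experiment 1. The log2 fold change was 0.11 at both times (SE 0.055 and 0.13, limma adjusted p = 0.593 and 0.717). The second probe set gave 0.024 (SE 0.088) and -0.049 (SE 0.061). The brighter one had log2 ratios of -0.43, 0.092 and 0.41 at 5 days as labelled.

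Bcl2, the founding anti-apoptotic member, gave a dim signal, lower than that of the median probe set. It read 33.9, 59.9 and 85.4 with doxycycline and 49.2, 50.6 and 89.8 in control at 24 h, and 75.2, 39.1 and 46.0 with doxycycline and 45.3, 82.6 and 49.3 in control at 48 h. The pairs pointed both ways at each time. The log2 fold changes were -0.12 (SE 0.26) and -0.15 (SE 0.48), so a change of the size seen in Bbc3 lay within its error.

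**Figure D2:**
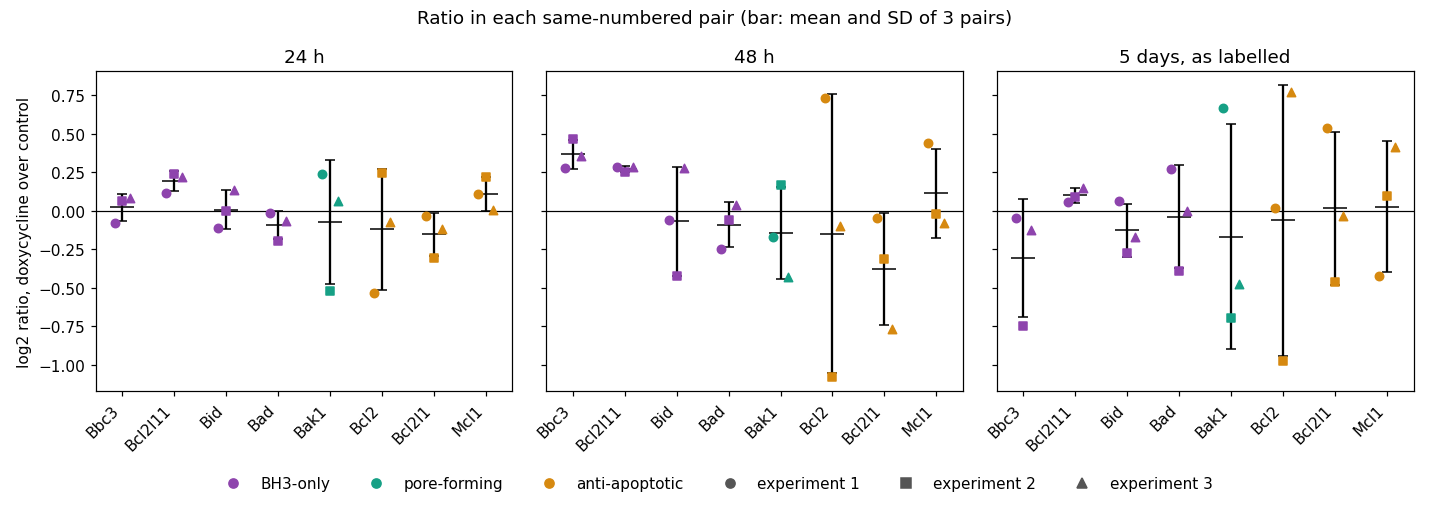
Log2 ratio of doxycycline over control (y axis) in each same-numbered pair for the 8 members (x axis), in 1 panel for each time, the last as labelled; points are experiments, coloured by class, and the black bars give the mean and SD of 3 pairs. At 48 h the 3 pairs of Bcl2l11 lay between 0.25 and 0.28 and those of Bbc3 between 0.28 and 0.46, whereas those of Bcl2 ran from -1.08 to 0.73.

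By class, the BH3-only representatives had a median log2 fold change of 0.10 at 48 h (4 genes, range -0.092 to 0.37), the 3 anti-apoptotic ones -0.15 (range -0.38 to 0.11) and Bak1 alone -0.15, beside a median of -0.0049 over all probe sets. At 24 h the medians were 0.014 for BH3-only and -0.12 for anti-apoptotic members, beside -0.0024 over all probe sets. Counted over all their probe sets, 4 of 7 BH3-only ones were positive and 3 negative at 48 h, with a median of 0.026. Of the anti-apoptotic ones, 1 of 6 was positive and 5 negative, with a median of -0.13. The classes thus did not move as blocks, and the BH3-only pair Bbc3 and Bcl2l11 stood apart from Bid and Bad within their own class. No test was made over the classes.

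Set against its effect at 24 h, the 48 h effect passed adjustment for no member. Over all probe sets this comparison called 0 (limma, smallest adjusted p = 0.791), with 1923 under 0.05 before adjustment, of which 1 was a member (Bbc3). In untreated cells, the representatives differed between 48 h and 24 h by a median of -0.019 on the log2 scale. The widest were Bak1 at 0.31, Bid at 0.28 and Bcl2l11 at -0.18, and the 3 control signals of 48 h overlapped those of 24 h for all 8 genes.

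Some upstream regulators moved by more. Of 14 measured upstream regulators of BH3-only genes in ER stress, 5 rose at 48 h in the limma fit of that time and none fell, with a list median of 0.53. Ddit3 (CHOP), a transcription factor of the PERK branch, gave 2908, 2608 and 2802 with doxycycline and 883, 730.4 and 850.0 in control, a log2 fold change of 1.76 (SE 0.041, adjusted p = 0.0438). Atf4, the factor translated when PERK is active, rose by 1.37 (SE 0.059), Trib3, a pseudokinase that CHOP induces, by 3.85 (SE 0.16), and Atf5 by 1.43 (SE 0.042), each at the same adjusted p. The fifth was Cebpb, a partner of CHOP, at 0.57 (adjusted p = 0.0490). At 24 h that fit called none of the 14, and the fit of 12 arrays called 2 there, Ddit3 at 1.39 (adjusted p = 0.0180) and Jun, a target of JNK signalling, at 0.71 (adjusted p = 0.00910). At 48 h the fit of 12 arrays called 7, all higher, without Cebpb (adjusted p = 0.0557). The representatives of the 8 member genes lay between -0.38 and 0.37 at that time.

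**Figure D3:**
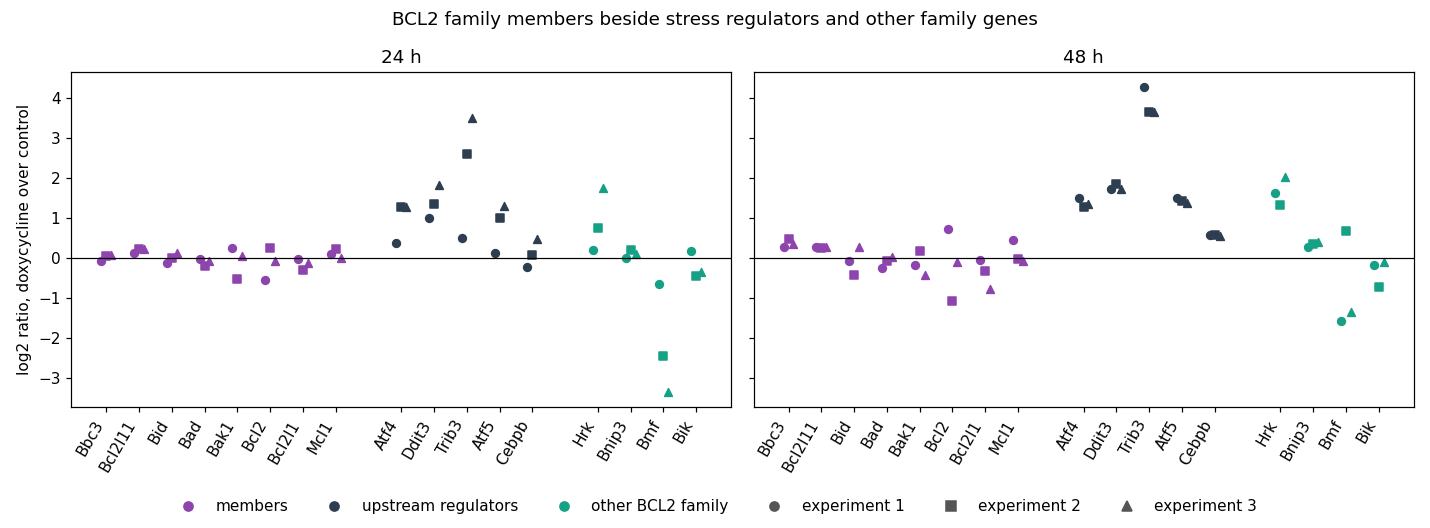
Log2 ratio of doxycycline over control (y axis) in each pair for the 8 members, 5 upstream regulators and 4 other BCL2 family genes (x axis), at 24 h and 48 h; marker shapes are experiments. At 48 h Trib3 averaged 3.85 and Hrk 1.65, while the member means lay between -0.38 and 0.37.

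Among 14 other measured BCL2 family genes, none passed at 48 h in the fit of that time. In the fit of 12 arrays 2 passed, both higher, where 2.27% of all probe sets were called higher. Hrk, a BH3-only gene best known from neurons, gave 229, 247 and 292 with doxycycline and 74.1, 98.9 and 72.5 in control at 48 h. Its groups did not overlap, as for 8.02% of all probe sets in the higher direction. Its log2 fold change was 1.65, the widest of the family genes measured at 48 h (limma adjusted p = 0.103 in the fit of that time and 0.0439 in the fit of 12 arrays). Bnip3, a mitochondrial protein with a BH3-like motif known for its part in hypoxia and mitophagy, gave 5108, 5066 and 5350.4 with doxycycline and 4229, 3940.0 and 4083 in control, also without overlap (0.34, adjusted p = 0.0938 and 0.0212). Bmf and Bik, other BH3-only genes, were dim and their groups overlapped at 48 h. At 24 h Bmf gave 26.5, 6.97 and 6.07 with doxycycline and 41.3, 37.9 and 61.1 in control. The lower group did not overlap with control, as for 3.75% of all probe sets, and the log2 fold change of -2.14 did not pass (SE 0.65, limma adjusted p = 0.489 in the fit of that time and 0.339 in the fit of 12 arrays).

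Downstream and parallel lists showed few calls, as did the array as a whole. At 48 h the fit of that time called 0.277% of all probe sets. The fit of 12 arrays called 4.09% then, with 2.27% higher. At 48 h the fit of that time called 0 of 19 caspases, apoptosome parts and inhibitors of apoptosis, 0 of 10 genes of p53 and its outputs, 0 of 9 ER-side partners of BCL2 proteins, 0 of 9 death receptor genes and 0 of 16 regulators of BAD and MCL1 protein. The fit of 12 arrays called 1 caspase-side gene, Htra2, a mitochondrial protease that blocks inhibitors of apoptosis once released (0.37, adjusted p = 0.0441), and 1 p53 output, Perp, a membrane protein (0.23, adjusted p = 0.0388), both higher. It called none of the other 3 lists. Of the ER-side partners, the widest values at 48 h were 0.29 for Itpr2, an ER calcium channel that BCL2 binds, and -0.24 for Bcap29, and among death receptor genes 0.50 for Cflar, the inhibitor of caspase 8, and -0.44 for Faslg. None of these 4 passed.

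The signals most like those of the 3 members with the widest 48 h difference were sought by Pearson correlation over the 18 arrays among 9076 genes of higher signal, as a description. All arrays share the treatment and the pairs. For Bcl2l1 these were Mxd3 (r = 0.94), Prdx2 (0.89) and Sae1 (0.88). For Bbc3 they were Lonp1 (0.87), Angptl8 (0.83) and Ciao3 (0.82), and for Bcl2l11 they were Glce (0.91), Manea (0.89) and Mtss1 (0.88). Over the 12 arrays of 24 h and 48 h alone these values lay between 0.77 and 0.94. Those 12 are among the 18 arrays used to pick the genes, so these values are no separate check. Among the members themselves, Bbc3 and Bcl2l11 correlated at 0.20 over the 18 arrays and at 0.025 over the 12.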

How the data were processed

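The authors labelled RNA of clone #4S2 and read it on Affymetrix rat genome arrays. They deposited a linear signal intensity for each probe set of each array, scaled so that trimmed means lie between 500.14 and 500.17. The program behind these values is not named in the sources used here. Of 31099 probe sets, 57 controls were left out. Platform annotation gave 1 gene to 20826, several to 436 and none to 9780. Intensities were quantile normalized between arrays, raised to a floor at the 10th percentile (5.99) and converted to log2. Limma 3.58.1 (R 4.3.3) was fitted to the 6 arrays of a time with its pairs as blocks and a variance trend, with Benjamini-Hochberg adjustment over 31042 probe sets. Where a gene had several probe sets, that of highest mean log2 signal represents it. In the check of pairing, departures from the group mean correlated, within pairs, between 0.11 and 0.67, and no identical arrays were found in 153 comparisons. P-values of the fits of a single time cover the spread between 3 experiments. The joint fit of both early times pools the spread over the pairs of both times and treats those pairs as independent. The labels do not say whether the same experiments supplied both times, so its p-values depend on that assumption. Of each list, genes called or of widest change were named. Members and lists were chosen with earlier results of these data known. The procedure was tested on simulated data. Summaries were made in Python 3.11.15. Sequences were read from RefSeq (GRCr8).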

Additional observations from a re-analysis of the deposited data

Results flagged for a closer look

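The Bbc3 difference between doxycycline and control had opposite signs at 5 days and 48 h, lower in all 3 pairs at 5 days as labelled and higher in all 3 at 48 h. The mean log2 ratio was -0.31 at 5 days and 0.37 at 48 h, a difference of -0.67. This combination of signs occurred in 0.976% of all probe sets, and it is lost when the experiment 1 pair at 5 days, which goes against its labels, is turned, with a log2 ratio of 0.049 in place of -0.049 and Bbc3 then lower in 2 of 3 pairs. In a limma fit of all 18 arrays, a contrast chosen after the signs had been seen, the difference had an SE of 0.18, an unadjusted p of 0.00499 and an adjusted p of 0.541, so it did not pass. Beside experiment 1, the library labelled doxycycline, replicate 2 has the raised GAPDH ratio, which leaves experiment 3 with a log2 ratio of -0.13. The part of these libraries in the difference was not tested.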

How the results depend on the processing

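No member was called by the fits of single time points with deposited scaling, without a variance trend, with all 18 arrays, with the methods' t-test or without any 1 replicate (0 in each). At 48 h the brighter 50 percent called 2 of 9 member probe sets, beside 2400 of all 15521. With log2(value + 16) the call was 1 of 14 (Bbc3), beside 1530 of all 31042. The fit of 12 arrays called 2 of 14, beside 1269 of all 31042. Additions to that fit were chosen after seeing the data. They called 3 of 9 with the brighter 50 percent, beside 2581 of all 15521. With no replicate block they called 0, beside 249 of 31042, and with 1 pair left out 0 to 2, beside 85 to 881. The cause of these moves was not tested.

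Over all probe sets, calls at 24 h numbered 577 with the brighter 50 percent (697 in the fit of 12 arrays), 249 with log2(value + 16), 207 in the fit of 12 arrays, 28 in it without the replicate block, 1 to 88 in it with 1 pair left out, and 1 by the methods' t-test. At 48 h they numbered 2400 with the brighter 50 percent (2581 in the fit of 12 arrays), 1530 with log2(value + 16), 1269 in the fit of 12 arrays, 249 in it without the replicate block, 242 with no replicate block in the fit of that time, 0 without the trend, with all 18 arrays and with any 1 replicate left out, and 85 to 881 in the fit of 12 arrays with 1 pair left out. At 5 days the methods' t-test called 2. Signs turned for 5 of the 8 genes in at least 1 alternative at 24 h or 48 h, and for 6 of the 8 at 5 days, where no test is given. Bid at 24 h was -0.0099 with deposited scaling and -0.034 as the mean of its probe sets. With 1 replicate left out, values ran from -0.23 to 0.15 for Bak1, -0.059 to 0.066 for Bid, -0.0078 to 0.072 for Bbc3 and -0.30 to 0.086 for Bcl2 at 24 h, and from -0.053 to 0.21 for Mcl1, -0.24 to 0.11 for Bid and -0.59 to 0.32 for Bcl2 at 48 h. Bbc3 and Bcl2l11 at 48 h stayed between 0.32 and 0.41 and between 0.27 and 0.28. The block changed no member call in the fits of 1 time.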
